A study of Mus musculus with 4 samples.

Results

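A set of 9 genes of the vascular endothelial growth factor (VEGF) system was taken by symbol from the transcript tables of mouse lung endothelial cells (ECs), out of 24063 symbols in all. It holds the ligand genes Vegfa, Vegfb, Vegfc and Pgf, the receptor genes Flt1, Kdr and Flt4, and the neuropilin genes Nrp1 and Nrp2. ECs had been isolated with magnetic beads carrying an antibody to CD31 from lungs of C57BL6J mice, 8 weeks old and labelled male, after unilateral pneumonectomy (PNX, removal of the left lung) or a sham operation, in which the chest was opened and no lung was taken. Post-PNX cells were collected on day 7. Each group had 2 libraries and each library pooled the cells of 2 mice, so p-values measure only the spread between these libraries, which may be partly technical, and not that between single mice.

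The libraries held between 41367438 and 50952879 counts with 1 transcript per symbol, and the limit that a count of 0 allows (3 counts, counting error only) was 0.0589 to 0.0725 CPM. Labels and data disagreed in places. No read was counted for any of 44 genes of chromosome Y (0 counts in each library), while Xist, the RNA that coats an inactive X chromosome, had between 31872 and 33792 normalized counts, against the labelled sex of all 4 libraries. The cells were described as free of CD45, yet Ptprc, which encodes it, had between 11422 and 11665 normalized counts. The surfactant gene Sftpc of alveolar type 2 cells had between 1881 and 2897 FPKM (counts scaled to transcript length and library total), beside 373 to 375 FPKM of Pecam1, which encodes CD31. RNA of cells other than ECs was thus present. Sham ECs and post-PNX ECs below therefore mean the CD31-selected libraries, and a level or change in them need not belong to ECs.

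VEGF ligands are secreted dimers that bind receptor tyrosine kinases on ECs. VEGF-A binds the receptors encoded by Flt1 and Kdr, placental growth factor (from Pgf) and VEGF-B bind the Flt1 receptor alone, and VEGF-C binds those of Flt4 and Kdr. The Kdr receptor carries most of the signal for growth, migration and permeability. The Flt1 receptor binds VEGF-A tightly, has weak kinase activity and restrains that signal, and the Flt4 receptor guides lymphatic growth. Neuropilins are co-receptors for VEGF ligands and receptors for class 3 semaphorins. In the lung, alveolar type 1 cells, which lie against the capillaries, are a main source of Vegfa.

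Vegfa has 9 transcripts in the tables, whose main coding forms differ by exons for the basic stretch with which VEGF-A binds heparan sulfate. These exons are shown because reads counted for a longer form and not for the next shorter one are reported below. The longest form keeps an exon of 72 bases (24 codons, chr17:46022277-46022348, minus strand) that the next form skips, and the shortest also skips an exon of 132 bases (44 codons, chr17:46020991-46021122, minus strand). Both are coding in the GENCODE annotation of GRCm38 and are printed whole, 5′ to 3′, with no part marked.
72-base exon: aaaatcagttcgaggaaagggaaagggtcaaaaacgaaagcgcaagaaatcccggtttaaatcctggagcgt
132-base exon: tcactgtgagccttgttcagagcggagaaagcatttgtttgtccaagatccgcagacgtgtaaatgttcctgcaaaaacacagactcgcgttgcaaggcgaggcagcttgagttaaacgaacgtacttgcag

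Promoters of 3 ligands are shown too, since the ligands moved in opposite directions. Each is the stretch of 250 bases before the most upstream start that RefSeq's table (GRCm38.p6) gave, 5′ to 3′, at chr17:46032378-46032627 (minus strand) for Vegfa, chr19:6987652-6987901 (minus strand) for Vegfb and chr8:54077282-54077531 (plus strand) for Vegfc. Capitals mark matches on either strand to any of 5 motifs, the GC box GGGCGG, the ETS core AGGAAG, the cAMP response element TGACGTCA, the core ACGTG of hypoxia elements and the core GGAATG bound by TEAD factors.
Vegfa promoter: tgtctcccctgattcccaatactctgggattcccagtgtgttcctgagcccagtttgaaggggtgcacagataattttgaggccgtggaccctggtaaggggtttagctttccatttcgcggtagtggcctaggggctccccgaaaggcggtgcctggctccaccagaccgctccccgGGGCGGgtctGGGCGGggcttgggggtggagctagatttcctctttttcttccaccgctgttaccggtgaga
Vegfb promoter: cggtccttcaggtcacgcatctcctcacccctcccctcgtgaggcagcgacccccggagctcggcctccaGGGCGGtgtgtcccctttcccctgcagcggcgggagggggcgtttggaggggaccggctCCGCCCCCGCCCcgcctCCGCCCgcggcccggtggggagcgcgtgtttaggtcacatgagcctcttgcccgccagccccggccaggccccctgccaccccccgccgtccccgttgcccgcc
Vegfc promoter: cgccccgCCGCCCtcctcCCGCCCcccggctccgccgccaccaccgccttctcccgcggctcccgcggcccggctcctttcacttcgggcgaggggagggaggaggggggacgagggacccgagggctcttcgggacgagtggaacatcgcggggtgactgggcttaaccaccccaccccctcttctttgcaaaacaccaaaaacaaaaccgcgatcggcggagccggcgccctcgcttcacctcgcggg

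The GC box was in 9 of 9 such stretches of the VEGF genes and in 32.7% of 32851 promoters searched in the same way. The 9 stretches had between 59.2% and 76.4% G and C, and those of Pgf, Flt1, Kdr and Nrp1 lay inside the span of the gene. In the GENCODE annotation those of Pgf and Flt4 lay in exons over all 250 bases, and that of Nrp2 over 32 bases and that of Kdr over 3, so not all of the 9 stretches lie before a gene. The ETS core was in 2 of 9, Flt1 and Nrp1, against 29.5% of all, and the cAMP response element in 1 of 9, Flt1, against 1.55%. Neither ACGTG nor GGAATG was in any of the 9, against 16.6% and 12.6% of all. A match describes letters only, and the GC box was in genes that rose and in genes that fell after PNX.

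Kdr, Flt1, Nrp1 and Vegfa were lower in post-PNX than in sham libraries, while Pgf, Nrp2, Vegfc and Vegfb were higher. Flt4 did not pass the test. All 9 genes passed the filter on low counts. At an adjusted p under 0.01 over 16208 genes, 4 of the 9 were higher and 4 lower after PNX. Of all genes tested 57.1% passed, 29.3% higher and 27.8% lower, so passing was common. None of the 9 went beyond a log2 fold change of 1 in edgeR, the fold threshold of the study's methods. Of all genes tested 7.56% passed and went beyond it, 5.9% upward and 1.66% downward. At so small a share 0 of 9 says little about these genes. The count was also 0 at an unadjusted p and in DESeq2, as the largest change was 0.83. Groups of libraries did not overlap in 8 of the 9 genes, as in 81.2% of all genes. Among the transcripts of the 9 genes, 11 were higher and 12 lower, where 58.4% of all transcripts tested passed.

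**Figure D1:**
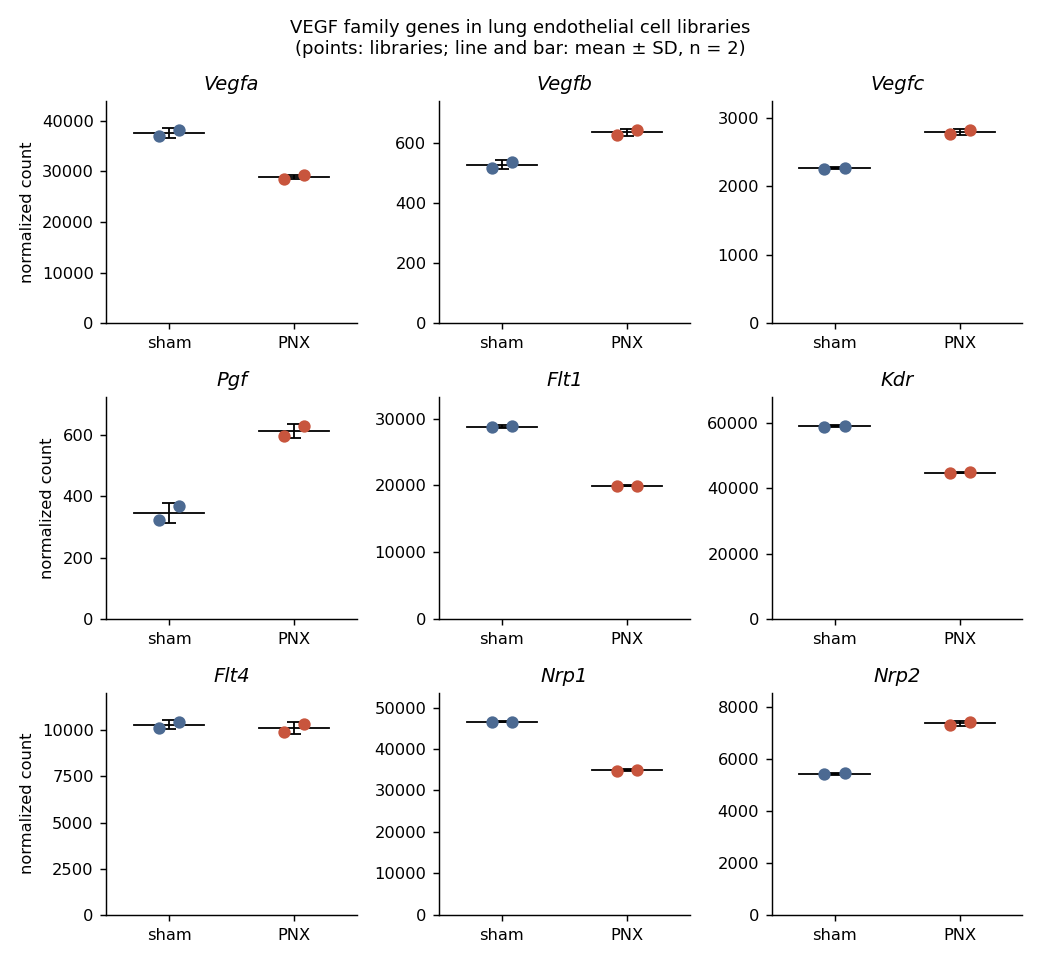
Normalized counts (vertical axis, from 0, a separate scale for each gene) in sham and post-PNX libraries; each point is 1 library, and the line and bar are the mean ± SD of 2 libraries. The post-PNX points lie below the sham points for Vegfa, Flt1, Kdr and Nrp1 and above them for Vegfb, Vegfc, Pgf and Nrp2, and they overlap for Flt4.

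Scaling sets how these changes read against ECs. Of 12 pan-endothelial markers 9 were lower and 2 higher (median log2 fold change -0.22, against 0.00 over all genes), with summed normalized counts of 488530 and 494371 in sham and 421051 and 422956 after PNX. Cdh5, which encodes VE-cadherin, was at -0.22 and Pecam1 at -0.01 (adjusted p = 0.64), and the 12 markers ranged from Eng at -0.54 to Emcn at 0.11. When counts were scaled to these 12 genes in place of edgeR's TMM factors, log2 fold changes shifted upward by 0.22. Kdr then had -0.18 (adjusted p = 6.9e-12), Nrp1 -0.20 (2.1e-12), Vegfa -0.16 (1.2e-09) and Flt1 -0.31 (9.9e-17). These 4 genes thus fell under either scaling, though by less under the second, and the p-values do not cover the spread among the 12 markers. Flt4 turned to 0.20 (adjusted p = 4.0e-09) and passed as higher, and Pgf reached 1.05, beyond the fold threshold. All further values are on the TMM scale unless the endothelial scale is named.

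**Figure D2:**
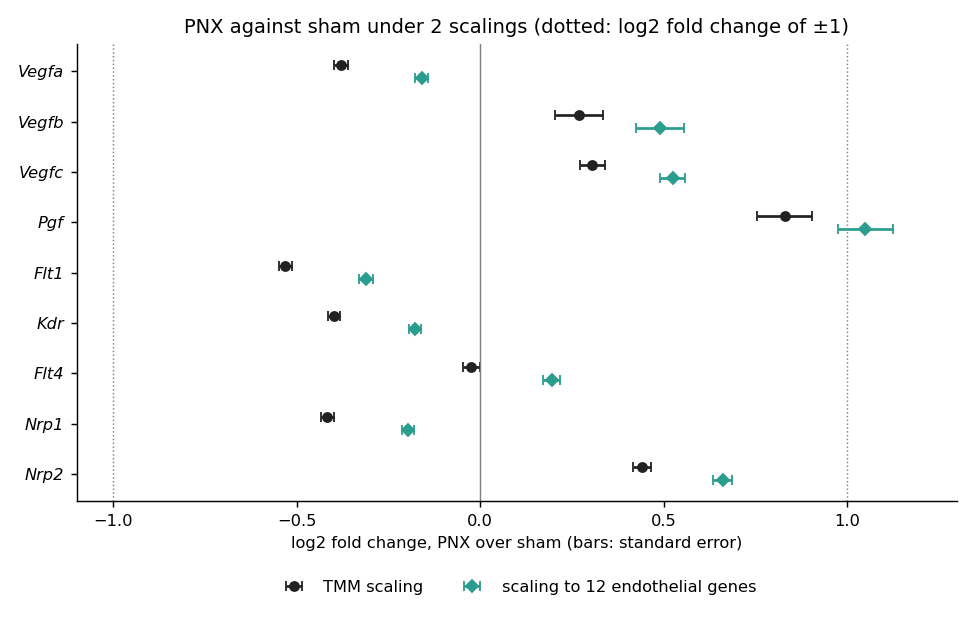
Log2 fold change of post-PNX over sham libraries for the 9 genes (horizontal axis, bars are standard errors). Circles are TMM scaling and diamonds are scaling to 12 endothelial marker genes. The second scaling moves each gene to the right by about 0.22, which leaves Vegfa, Flt1, Kdr and Nrp1 below 0 and takes Flt4 above 0 and Pgf to 1.05.

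Levels between genes were compared per length, as FPKM of the chosen transcript. Sham libraries had 146 and 147 FPKM of Kdr and 142 and 147 of Vegfa, and these ranges overlapped. Nrp1 followed with 107 and 107 FPKM, Flt1 with 62 and 62.6, and Flt4 with 23.5 and 24.3. The other ligands and Nrp2 were lower still. Vegfc had 16.3 and 16.4 FPKM, Nrp2 10.9 and 11, Vegfb 5.47 and 5.69, and Pgf 2.74 and 3.14. Apart from Kdr and Vegfa, no neighbours in this order overlapped within a group. After PNX the order was the same, and Kdr (112 and 112 FPKM) and Vegfa (111 and 113) overlapped again. By mean FPKM over the 4 libraries, Kdr was at rank 298 and Vegfa at rank 300 of the 16208 genes tested, while Pgf was at rank 9016.

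**Figure D3:**
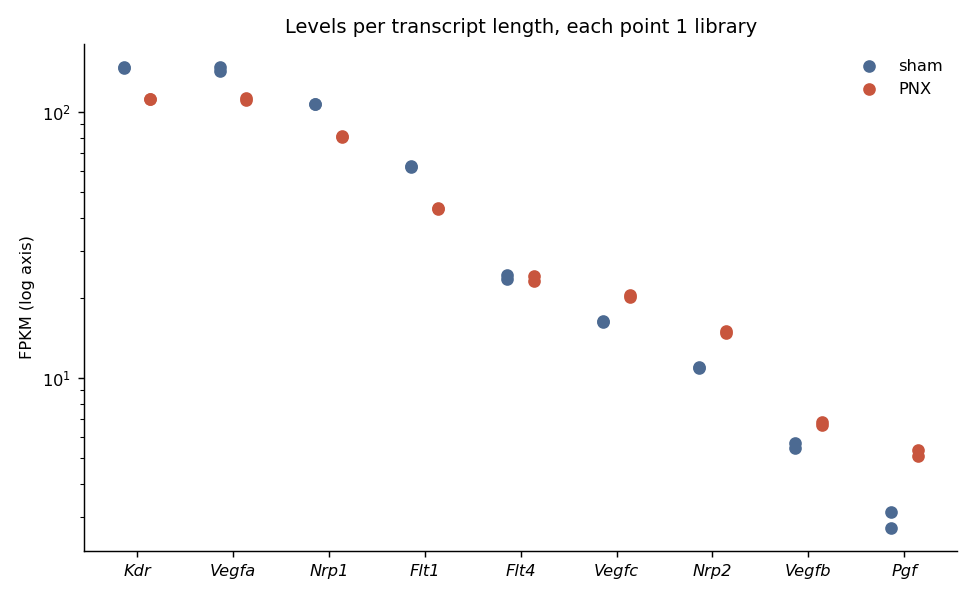
FPKM of the chosen transcript of each gene (vertical log axis), with each point 1 sham or post-PNX library and the genes ordered by their level. Kdr and Vegfa stand at the top near 146 FPKM in sham, and Pgf at the bottom near 3 FPKM.

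Vegfa, the ligand that Kdr and Flt1 share, lies on chromosome 17 from 46016993 to 46032377 on the minus strand of mm10. Sham libraries held 36914 and 38215 normalized counts of it, and post-PNX libraries 28567 and 29182. The groups did not overlap, and the level fell by 23.1%, a log2 fold change of -0.38 ± 0.018 (SE, adjusted p = 2.4e-27). Of all genes tested, 13.4% had a lower fold change. Of the FPKM summed over the 4 ligand genes, Vegfa held 85.3% and 85.3% in sham ECs and 77.6% and 77.5% after PNX.

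Alveolar type 1 markers, whose cells are a main source of Vegfa, were lower in 8 of 8 cases (median log2 fold change -0.45), or 6 lower and 1 higher on the endothelial scale. Their summed normalized counts were 103662 and 104909 in sham and 74724 and 75224 after PNX, and none was at 0. Ager, the receptor that marks these cells, had a log2 fold change of -0.38, and the ratio of Vegfa to Ager in FPKM was between 0.471 and 0.479 in the 4 libraries. The ratio to Hopx, another such marker, was 0.642 and 0.667 in sham and 0.797 and 0.801 after PNX. The 8 markers ranged from -0.99 to -0.08, and the ratio of Vegfa to Kdr, an endothelial gene, was 0.972 and 0.999 in sham and 0.991 and 1.01 after PNX. In bulk libraries fewer cells of a type and less RNA per cell cannot be told apart, and the part of alveolar type 1 RNA in the level of Vegfa was not tested.

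Reads on the Vegfa exons printed above were taken as the difference in counts between the longer and the next shorter transcript. The 72-base exon had 151 and 141 reads in sham and 107 and 97 after PNX, and the 132-base exon 694 and 696 in sham and 541 and 501 after PNX. Of these reads, the 72-base exon held 17.9% (95% Wilson interval 15.4% to 20.6%) and 16.8% (14.5% to 19.5%) in sham. After PNX it held 16.5% (13.9% to 19.6%) and 16.2% (13.5% to 19.4%). The intervals, which cover counting error only, overlap across groups. Any read counted for both transcripts drops out of such a difference, and the reads left were 0.37% to 0.38% of the Vegfa count for the 72-base exon. These shares therefore do not measure how often the exon is used, and a change in its use was not tested. The 9 transcripts had log2 fold changes from -0.38 to -0.37 in a fit over all transcripts, but most of their reads were counted for each of them.

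Pgf, the gene of placental growth factor, had the largest rise of the 9 genes. It lies on chromosome 12 from 85166637 to 85177785. Sham libraries held 323 and 370.04 normalized counts and post-PNX libraries 597 and 631, without overlap. The rise was 1.78-fold, a log2 fold change of 0.83 ± 0.075 (SE, adjusted p = 4.3e-15), and it lay between 0.73 and 0.93 as single libraries were left out. Its share of the FPKM of the 4 ligand genes, without Figf, went from 1.65% and 1.82% in sham to 3.58% and 3.70% after PNX. With FPKM summed over transcripts the shares were 0.433% and 0.472%, then 0.999% and 1.06%. The ratio of Pgf to Vegfa went from 0.0193 and 0.0214 to 0.0462 and 0.0477.

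Vegfc, the ligand of lymphatic growth, lies on chromosome 8 from 54077532 to 54186454. It had 2256 and 2273 normalized counts in sham and 2769 and 2828 after PNX, a log2 fold change of 0.31 ± 0.034 (SE, adjusted p = 6.1e-12). Vegfb lies on chromosome 19 from 6982472 to 6987651 and encodes a ligand of Flt1 linked to fatty acid uptake by ECs. It had 516 and 537 normalized counts in sham and 627 and 643 after PNX, a log2 fold change of 0.27 ± 0.066 (SE, adjusted p = 0.00027). In both genes the groups did not overlap, but Vegfb missed the threshold in DESeq2's Wald test (adjusted p = 0.022). Figf, the gene of VEGF-D, the other ligand of Flt4, rose from 1809 to 2850.15 normalized counts (log2 fold change 0.66, adjusted p = 9.2e-25). The ratio of Vegfc to Figf in FPKM was 1.25 and 1.25 in sham and 0.948 and 1.01 after PNX.

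Kdr, the main signalling receptor for VEGF-A, lies on chromosome 5 from 75932827 to 75979072. Sham libraries held 58646 and 59039.7 normalized counts and post-PNX libraries 44499.7 and 44768, with group means of 58843 ± 279 and 44634 ± 190 (SD, n = 2). The level fell by 24.1%, a log2 fold change of -0.40 ± 0.017 (SE, adjusted p = 1.3e-30). Flt1, on the same chromosome from 147561604 to 147726438, had 28669 and 28937 normalized counts in sham and 19974 and 19898 after PNX. It fell by 30.8%, the largest decrease of the 9 genes, with a log2 fold change of -0.53 ± 0.018 (SE, adjusted p = 1.0e-34), and 8.01% of all genes had a lower one. The soluble form of Flt1 was not analysed here.

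The 3 receptors changed to different degrees. The ratio of Flt1 to Kdr in FPKM was 0.424 and 0.425 in sham ECs and 0.390 and 0.386 after PNX, without overlap. With 2 libraries against 2 an exact permutation test of a ratio cannot go below p = 0.333, so none is given. Flt4, on chromosome 11 from 49609679 to 49652739, had 10115 and 10464 normalized counts in sham and 9897 and 10335 after PNX. These groups overlapped, with a log2 fold change of -0.02 ± 0.023 (SE, adjusted p = 0.34). Of the FPKM of the 3 receptors, Kdr held 63.1% and 62.9% in sham and 62.6% and 62.4% after PNX, and Flt4 went from 10.2% and 10.4% to 13% and 13.5%. The ratio of Kdr to Cdh5 in FPKM was 0.390 and 0.390 in sham and 0.346 and 0.344 after PNX, and that to Pecam1 0.392 and 0.393 against 0.299 and 0.300. The 12 pan-endothelial markers ranged in log2 fold change from -0.54 (Eng) to 0.11 (Emcn). Kdr, at -0.40, lay inside that range, so such ratios depend on the marker.

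Lymphatic EC markers, whose cells carry much Flt4, moved in both directions. Of 7 tested, 4 were higher and 1 lower (median 0.32), and Ccl21a was too low to be tested. Their summed normalized counts were 62012 and 61462 in sham and 38844 and 39077 after PNX, mostly of Lyve1. Prox1, the factor that specifies lymphatic ECs, rose from 672 to 902 normalized counts (log2 fold change 0.43), while Lyve1, a hyaluronan receptor also found on some macrophages, fell from 44712 to 20229.9 (log2 fold change -1.14). The ratio of Flt4 to Prox1 in FPKM was 10.8 and 10.9 in sham and 7.82 and 8.06 after PNX. The part of lymphatic RNA in the level of Flt4 was not tested.

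Nrp1, co-receptor of Kdr for VEGF-A, lies on chromosome 8 from 128358591 to 128505476. Its normalized counts were 46615 and 46473 in sham ECs and 34709 and 35023 after PNX, without overlap. The log2 fold change was -0.42 ± 0.017 (SE, adjusted p = 6.1e-31). The ratio of Nrp1 to Kdr in FPKM was 0.732 and 0.725 in sham and 0.718 and 0.720 after PNX.

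Nrp2, which pairs with Flt4 in venous and lymphatic ECs, went the other way. It lies on chromosome 1 from 62703317 to 62818692 and had 5399 and 5456 normalized counts in sham and 7303 and 7431 after PNX. The rise was 1.36-fold, a log2 fold change of 0.44 ± 0.025 (SE, adjusted p = 3.0e-24). Of the FPKM of both neuropilin genes, Nrp2 held 9.24% and 9.35% in sham and 15.6% and 15.7% after PNX. With FPKM summed over its 6 transcripts, which share reads, it held 37.3% and 37.8% in sham and 52.2% and 52.4% after PNX. Its 6 transcripts had log2 fold changes between 0.45 and 0.48. Fibroblast markers moved the same way as Nrp2, Pgf and Vegfc, with 6 of 8 higher and 1 lower, none at 0, and summed normalized counts of 77413 and 77933 in sham and 272603 and 275572 after PNX. The part of fibroblast RNA in these rises was not tested.

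General capillary markers were lower in 7 of 8 cases and higher in 1 (median -0.55; 6 and 2 on the endothelial scale), among them the lipase anchor Gpihbp1 at -0.64 and the fenestral protein gene Plvap at -0.65. Of 8 markers of aerocytes, the capillary cells in which Kdr is known to be high, 5 were lower and 3 higher under both scalings (median -0.37). Car4, a carbonic anhydrase of these cells, was at 0.24 and the endothelin receptor gene Ednrb at -0.58. Of venous markers 5 were higher and 3 lower, and of arterial markers 3 and 5 (3 and 2 on the endothelial scale). Alveolar type 2 markers were lower in 8 of 8 cases (7 of 8 on the endothelial scale). Mesothelial markers were higher in 6 of 6 cases, macrophage and monocyte markers in 7 of 7, and smooth muscle and pericyte markers in 7 of 8. Of mast cell markers 4 were higher and 3 lower, and of pan-leukocyte markers 3 were higher and 1 lower (6 higher on the endothelial scale). Of all genes tested 29.3% were higher and 27.8% lower, or 54.6% and 10.4% on the endothelial scale. Each count of markers, here and above, is to be read beside these shares. The part of these cells in the levels of the VEGF genes was not tested.

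**Figure D4:**
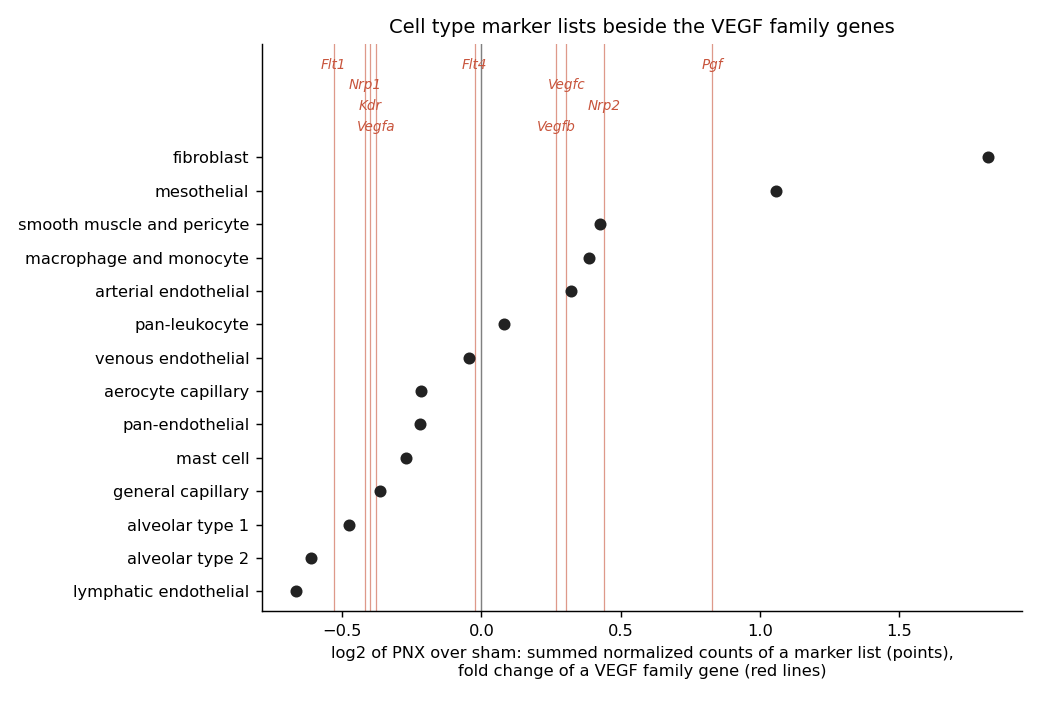
Each point is the log2 ratio of post-PNX to sham summed normalized counts of a cell type marker list (horizontal axis), and red lines are the log2 fold changes of the 9 VEGF genes. Vegfa, Kdr and Nrp1 lie between the general capillary list at -0.36 and the alveolar type 1 list at -0.48, and the fibroblast list stands far to the right at 1.82.

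The other genes of the pathway moved in both directions. Over 6 lists, 133 further genes were tested, of which 51 were higher, 53 lower and 29 did not pass, with a median log2 fold change of -0.02. On the endothelial scale 83 were higher and 20 lower, where the shift of all genes gave 54.6% higher and 10.4% lower among the 16208 tested, with a median of 0.22. On the TMM scale 29.3% of all genes tested were higher and 27.8% lower. Counts of each list below are to be read beside these shares, and some lie near them.

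Of 43 genes that relay the signal inside the cell, 13 were higher and 18 lower (30 and 4 on the endothelial scale). Sphk1, a sphingosine kinase, fell from 620.06 to 383 normalized counts (log2 fold change -0.70), and Sh2d2a, the adaptor TSAd that links Kdr to Src, fell by 0.50 on the log2 scale. Shc2, another adaptor, rose from 77.0 to 179 normalized counts (log2 fold change 1.21). Plcg1, the phospholipase that docks on Kdr, went from 13017 to 10164 normalized counts (log2 fold change -0.36), and Nos3, the endothelial nitric oxide synthase, was at 0.28. The scaffold gene Iqgap1, which had the most counts of these, was at 0.03 (adjusted p = 0.12).

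Of 24 co-receptors and brakes, 9 were higher and 10 lower (13 and 5 on the endothelial scale). Ptprb, the phosphatase that dampens Kdr and Tie2 signals, fell from 112400 to 67928 normalized counts (log2 fold change -0.73). Efnb2, an ephrin that takes part in receptor uptake, and Spry1, a feedback inhibitor of receptor kinases, each fell by 0.63.

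Of 26 genes known to respond to VEGF in ECs, 10 were higher and 14 lower (median -0.13), and 12 were higher and 6 lower on the endothelial scale. Esm1, a tip cell proteoglycan, fell from 1339 to 304 normalized counts (log2 fold change -2.14, adjusted p = 2.2e-38), and Igfbp3, a binding protein of insulin-like growth factors, had a log2 fold change of -1.71. Dll4, the Notch ligand of tip cells, was at -0.34 and Angpt2, which loosens vessel walls, at -0.29. Among the 10 that were higher were Nr4a2 at 0.71, Nr4a3 at 0.65, Rcan1 at 0.61 and Unc5b at 0.49. The adhesion receptor Sele rose by 0.86, and Egr1, an early response factor with the most counts of this list, was at -0.12 on the TMM scale.

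Of 20 genes listed under hypoxia control, 7 were higher and 5 lower (12 and 3 on the endothelial scale). Epas1, a hypoxia factor that can act on Vegfa, Flt1 and Kdr, fell from 260639 to 172041 normalized counts (log2 fold change -0.60), while Hif1a rose by 0.42. Egln3, a prolyl hydroxylase, rose from 100.3 to 447 normalized counts (log2 fold change 2.16). Ppargc1a, a coactivator gene that was also placed in this list, fell from 155 to 70.0 normalized counts (log2 fold change -1.16).

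Of 10 genes tested that encode or process VEGF-C and VEGF-D, 8 were higher and 1 lower (median 0.46; 9 and 0 on the endothelial scale), where 29.3% of all genes tested were higher. Fibroblast markers moved the same way, with a median of 2.18, and their part in this list was not tested. Adamts3, the protease that cuts VEGF-C, rose from 93.0 to 251 normalized counts (log2 fold change 1.43), its relative Adamts2 by 1.78 and the cathepsin gene Ctsd by 0.64. Ccbe1, the cofactor of Adamts3, was at 0.12 (adjusted p = 0.053).

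Of 12 class 3 semaphorins and plexins, 5 were higher and 5 lower (8 and 2 on the endothelial scale). Sema3c, which had the most counts, was at 0.21 and Sema3d at 0.58, while Sema3g was at -0.41 and Sema3e at -0.40.

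**Figure D5:**
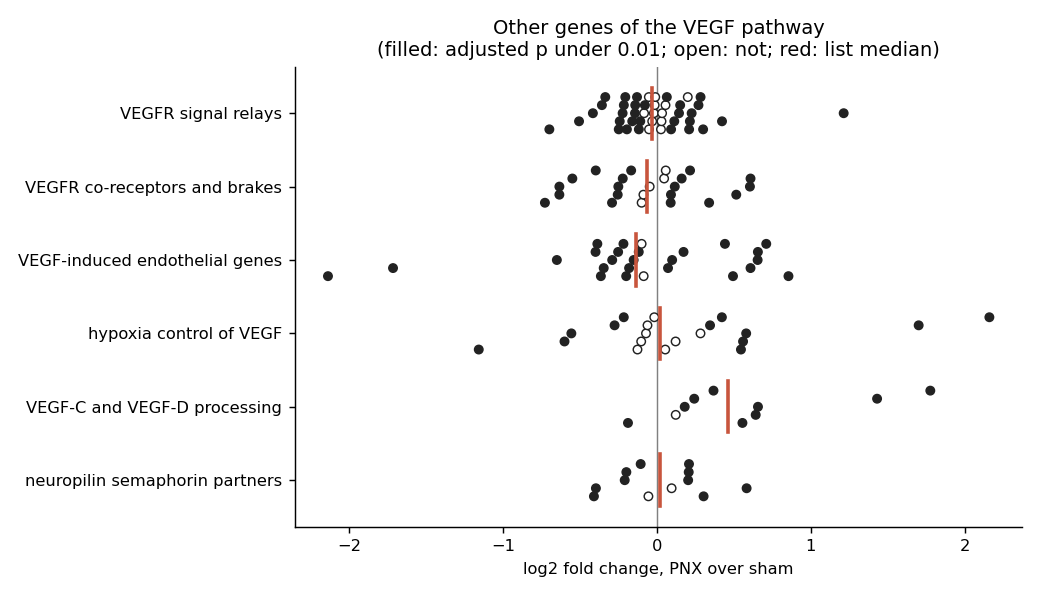
Log2 fold change of post-PNX over sham libraries (horizontal axis) for each tested gene of 6 lists of the VEGF pathway. Filled points passed an adjusted p of 0.01, open points did not, and red bars are list medians. The medians lie between -0.13 and 0.02 except for the VEGF-C and VEGF-D processing list at 0.46, and Esm1 at -2.14 and Egln3 at 2.16 are the farthest points.

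The genes most like each VEGF gene were taken by the Euclidean distance of centred log2 normalized counts over the 4 libraries, among 13401 other genes. For Flt1 these were Emp2, Eng and Zfp609 (distances 0.0085, 0.012 and 0.012), where Emp2 is an aerocyte marker and Eng encodes the co-receptor endoglin. For Kdr they were Egfl6, Appl2 and Zbtb39, for Nrp1 Tax1bp1, Afap1l1 and Pkp4, and for Vegfa Prkaa2, Bptf and Zfp658. For Pgf they included Oaf and BC055324, and they were for Nrp2 Rps2, Igfbp5 and B430319G15Rik, for Vegfc Tmem138, Opa3 and Ptbp1, and for Vegfb Itgb3, Cxcl16 and Shc1. With 2 groups of 2 libraries such likeness is mostly a like fold change.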

How the data were processed

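RNA of CD31-selected lung ECs was sequenced from 2 sham and 2 post-PNX libraries, each of 2 mice. Per the study's methods, stranded mRNA libraries were read as paired ends and aligned to mm10. The submitters' processing notes name STAR; the counting program and versions are not given in the sources used here. The authors deposited whole-number counts per RefSeq transcript (33068 rows), not normalized, beside FPKM and TPM values. Transcripts of a gene share reads.

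Each symbol was represented by its most counted transcript. Totals were 50952879 and 45261208 in sham and 46783725 and 41367438 after PNX. The counts were tested in edgeR 4.0.16 under R 4.3.3 (filterByExpr, TMM, quasi-likelihood F test, no covariates) with Benjamini-Hochberg adjustment over 16208 genes. Standard errors are the log2 fold change divided by the square root of F, and normalized counts are scaled to the mean library size. Deposited FPKM served to compare levels between genes, and deposited TPM as their alternative. Read shares have 95% Wilson intervals. The fits were tested on simulated data. Coordinates and promoters are RefSeq's on GRCm38.p6, the assembly of mm10, found for 9 of 9 genes; the Vegfa exons are GENCODE M21's.

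The 9 genes and all lists were chosen with earlier results of these data known. Named list genes are, per list, the 3 that changed most among those that passed at a mean of 100 or more normalized counts, the most counted gene, and set markers. Many of these are not printed. Plcg1, Nos3, Dll4, Angpt2, Nr4a2, Nr4a3, Rcan1, Unc5b and Ccl21a were named after their values were seen. Of the genes nearest to Pgf, 1 is not reported here. Alternatives were 3 other scalings (size factors of DESeq2, library size, 12 endothelial genes), 2 other count filters (none, mean of 50), DESeq2 1.42.0 with its Wald test, a replicate block, summed transcripts, an adjusted p under 0.05, glmTreat, and leaving out each library.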

Additional observations from a re-analysis of the deposited data

How the results depend on the processing

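With each library left out in turn, 4 of the 9 genes were higher and 4 lower each time, and 0 went beyond a log2 fold change of 1. Scaling to 12 endothelial genes, which raises fold changes by construction, took 1 gene, Pgf, beyond it. It gave 83 higher and 20 lower genes in the pathway lists and 33 lower cell type markers, against 51, 53 and 50 with TMM. With each library left out, the pathway lists had 44 to 49 higher and 47 to 50 lower genes, the markers 50 to 51 higher and 46 to 48 lower, and the transcripts of the 9 genes 11 higher and 12 lower. The log2 fold change of Flt4 was 0.20 on the endothelial scale and -0.055 to 0.0085 with a library left out, positive only without the first post-PNX library (adjusted p = 0.82). Vegfb, at 0.27, had an adjusted p of 0.022 in DESeq2's Wald test. With FPKM summed over transcripts, in which shared reads count repeatedly, Vegfa held 97.5% of the ligand FPKM in sham and 95.7% after PNX, and Nrp1 62.5% and 47.7% of the neuropilin FPKM. Replicate numbers mark no shared mouse, and deviations of libraries with the same number had a correlation across genes of 0.024. With the replicate block 4 of the 9 genes were again higher and 4 lower, and no call on them changed. Counts are lowest for Pgf and Vegfb, whose standard errors of 0.075 and 0.066 exceed the 0.017 of Kdr, and 2 pooled libraries a group say little about single mice.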
